A study of Rattus norvegicus with 8 samples.

Results

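The cell cycle and proliferation genes described here are 40 genes chosen by name for known roles in cell division, in 4 groups: S phase genes, mitotic genes, D-type cyclins with their kinase, and inhibitors of cyclin-dependent kinases. They were chosen with earlier results of these data known. A probe set, the array's unit of measurement for a transcript, was counted as a member where its annotation gave exactly 1 of these symbols. By that rule 38 of the 40 genes were on the array, with 54 probe sets of 31042 in all (14217 genes had a probe set of their own). The 38 were 13 of 14 S phase genes, 18 of 19 mitotic genes, all 4 of the cyclin D group and all 3 inhibitors. The ribonucleotide reductase subunit Rrm2 shared its probe sets with Rrm2l1 in the annotation, and the spindle factor Tpx2 was not listed, so neither was analysed here.

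RNA of the ventral prostate of F3 generation Sprague-Dawley males was measured with 8 Affymetrix rat arrays, 2 for each of 4 groups: vinclozolin lineage prostate epithelium at 45 days of age, control lineage epithelium at 45 days, vinclozolin lineage whole ventral prostate at 180 days and control lineage whole ventral prostate at 180 days. Vinclozolin is a fungicide that blocks the androgen receptor, and the F3 males were the generation bred on from dams injected in pregnancy from embryonic day 8 to day 14. Lineage was taken from the sample titles, because the treatment text of all 8 samples names only the vehicle, DMSO. What is said of vinclozolin here holds only as far as those titles do. An epithelium sample was a pool from 11 animals, and a whole prostate sample one from several, with no number given. Nothing says whether both pools of a group came from different animals, and the p-values then measure only how these pools spread, which may be technical. Age and preparation changed together between the epithelium and the whole prostate samples and cannot be told apart.

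In the division cycle, D-type cyclins with Cdk4 bring a cell out of G1, E-type cyclins with Cdk2 start DNA replication by the Mcm helicase and the Pcna clamp, and A- and B-type cyclins with Cdk1 drive mitosis. Inhibitors such as Cdkn1a and Cdkn1b hold these kinases back. Most mitotic genes are transcribed only in dividing cells, so that their RNA, like that of the proliferation marker Mki67, follows the share of cycling cells. In the prostate, growth is driven by androgens up to adulthood and turnover in the adult gland is slow.

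Promoter sequences are shown for Cdkn1a, called below between the lineages, and for Mcm2, Plk1 and Ccnb1, chosen by name as S phase and mitotic members. The RefSeq table of assembly GRCr8 held promoters, 250 bases before to 50 after the first listed start, for 30 of the 38 members. Those of Mcm4, E2f1, Ccne2, Ccna2, Aurkb, Ube2c, Ccnd1 and Ccnd2 were not matched. The following elements were searched on both strands: the cell cycle genes homology region (CHR) as TTTGAA, the CCAAT box as CCAAT, and an E2F core as TTCGCGC or TTGGCGC, with overlapping matches counted. Capitals mark these letters below. The Cdkn1a promoter, chr20:7150682-7150981 on the plus strand, held none of them. The promoter of Ccnb1, the mitotic cyclin B1, chr2:33655176-33655475 on the minus strand, held 2 CCAAT boxes. That of Plk1, a mitotic kinase, chr1:186147408-186147707 on the plus strand, held 1 CCAAT box and 1 CHR. That of Mcm2, a subunit of the replication helicase, chr4:122918045-122918344 on the minus strand, held 2 CHR matches and 2 E2F cores, and these E2F matches overlap each other.
Cdkn1a: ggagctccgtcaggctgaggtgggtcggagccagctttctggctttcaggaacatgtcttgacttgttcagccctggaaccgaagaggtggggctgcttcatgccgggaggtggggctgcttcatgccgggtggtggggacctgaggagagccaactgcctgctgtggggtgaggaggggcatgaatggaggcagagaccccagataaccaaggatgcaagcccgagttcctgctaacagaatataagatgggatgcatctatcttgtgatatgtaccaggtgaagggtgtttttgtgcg
Mcm2: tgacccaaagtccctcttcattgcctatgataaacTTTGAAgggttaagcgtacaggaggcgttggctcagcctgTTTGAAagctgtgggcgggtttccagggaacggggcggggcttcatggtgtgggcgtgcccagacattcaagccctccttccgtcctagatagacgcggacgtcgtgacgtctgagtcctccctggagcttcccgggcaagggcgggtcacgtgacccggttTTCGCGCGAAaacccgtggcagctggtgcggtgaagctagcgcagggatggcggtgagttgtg
Plk1: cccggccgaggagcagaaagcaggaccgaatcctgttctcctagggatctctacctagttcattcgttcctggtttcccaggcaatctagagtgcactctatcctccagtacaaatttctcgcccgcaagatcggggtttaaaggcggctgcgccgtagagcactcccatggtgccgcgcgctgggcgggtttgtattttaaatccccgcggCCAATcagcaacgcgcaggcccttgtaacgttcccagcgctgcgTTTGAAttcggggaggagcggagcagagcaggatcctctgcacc
Ccnb1: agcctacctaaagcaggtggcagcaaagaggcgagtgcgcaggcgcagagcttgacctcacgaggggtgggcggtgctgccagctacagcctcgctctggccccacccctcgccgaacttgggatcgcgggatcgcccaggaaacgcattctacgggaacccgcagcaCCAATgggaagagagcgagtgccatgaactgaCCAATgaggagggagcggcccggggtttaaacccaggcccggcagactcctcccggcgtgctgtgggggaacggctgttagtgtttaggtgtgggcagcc

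TTTGAA was in 9 of 15 mitotic promoters (60.0%) and 1 of 10 S phase promoters, against 18.1% of all 27457 promoters in the table. The mitotic genes with a match were Mki67, Top2a, Cdk1, Ccnb2, Bub1b, Plk1, Birc5, Cdc20 and Nusap1. The E2F core was in 6 of 10 S phase promoters, those of Mcm2, Mcm3, Mcm5, Mcm6, Mcm7 and Tyms, and in 2 of 15 mitotic ones, against 3.89% of all promoters. CCAAT was in 11 of 15 mitotic and 7 of 10 S phase promoters, against 37.7% of all. Of the 2 cyclin D group promoters in the table, Ccnd3 held a CCAAT box, and of the 3 inhibitor promoters, Cdkn1b did. A match is a description of letters, not of a bound site.

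The deposited intensities had the same trimmed mean of 125 on each array, with medians of 36.3 to 38.7 on the epithelium arrays and 28.7 to 31.5 on the whole prostate arrays. Levels below are log2(intensity + 16) after quantile normalisation, and the added 16 understates changes of dim probe sets. The 3' to 5' signal ratio of actin, which grows with RNA degradation, was 2.26 to 2.57 in epithelium and 3.14 to 3.98 in whole prostate. Luminal markers, the genes of the secretory epithelium, summed to 18216 to 18826 intensity units in epithelium and 17357 to 18186 in whole prostate. Gene by gene they were mixed. From whole prostate to epithelium 3 of 6 changes were positive in the vinclozolin lineage (median -0.03) and 2 of 6 in controls (median -0.21). Of all probe sets 45.6% were positive in the vinclozolin lineage and 45.4% in controls. The 5 smooth muscle markers summed to 11141 to 12838 on the arrays labelled epithelium, against 1700 to 2213 on those of whole prostate, and the 6 fibroblast markers to 8857 to 9538 in epithelium, against 2531 to 2859 in whole prostate. The arrays labelled epithelium thus held more RNA of stromal markers than those of the whole gland, and fewer cells of a type and less RNA per cell cannot be told apart. No gene of the marker lists was listed at 0.

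In whole ventral prostate at 180 days, 2 genes rose in the vinclozolin lineage on at least 1 probe set and none fell. They were Cdkn1a, the p53-inducible inhibitor of cyclin-dependent kinases, by 0.87 ± 0.13 on the log2 scale (SE, n = 2 arrays each), or 1.82-fold, and Ccnd1, the D-type cyclin of G1, by 0.84 ± 0.14, or 1.79-fold. The other 36 genes on the array did not pass the test on any probe set. By limma with Benjamini-Hochberg adjustment over 21729 probe sets and a threshold of 0.05, the adjusted p was 0.0294 for Cdkn1a and 0.0478 for Ccnd1. The share called over all probe sets tested was 1.74%, 0.819% upwards and 0.925% downwards (47.0% of the calls upwards, and 36.1% with arrays centred on their medians). Among members, 2 of the 50 probe sets that passed the filter on dim signals were called.

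The called probe set of Cdkn1a had deposited intensities of 257 and 223 in the vinclozolin lineage, against 133 and 113 in controls. Its log2 levels were 8.07 and 7.90 in the vinclozolin lineage, against 7.22 and 7.02 in controls, so both vinclozolin arrays lay above both control arrays. A second, dimmer Cdkn1a probe set read 5.25 and 5.27 in the vinclozolin lineage, against 4.61 and 4.10 in controls, a difference of 0.91 ± 0.20 that missed the threshold (adjusted p = 0.0824, limma). Ccnd1 has 3 probe sets, all with both vinclozolin arrays above both control arrays, where 26.1% of all probe sets lay so. The called one had log2 levels of 7.89 and 7.64 in the vinclozolin lineage, against 6.81 and 7.03 in controls. The brightest read 8.38 and 8.20 in the vinclozolin lineage, against 7.81 and 7.69 in controls (difference 0.54 ± 0.12, adjusted p = 0.0792), and the remaining one differed by 0.32 ± 0.15 (adjusted p = 0.312). As both genes were picked by their calls in this comparison, the separation of their arrays adds no support. Both calls were lost when any 1 of the 8 arrays was left out. Without an array the adjusted p was 0.0560 to 0.183 for Cdkn1a, with changes of 0.76 to 0.96, and 0.0697 to 0.256 for Ccnd1, with changes of 0.71 to 0.96. Both calls were also lost without the filter and in a fit of the whole prostate arrays alone, and that of Ccnd1 with an added constant of 1 and with median centring.

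**Figure D1:**
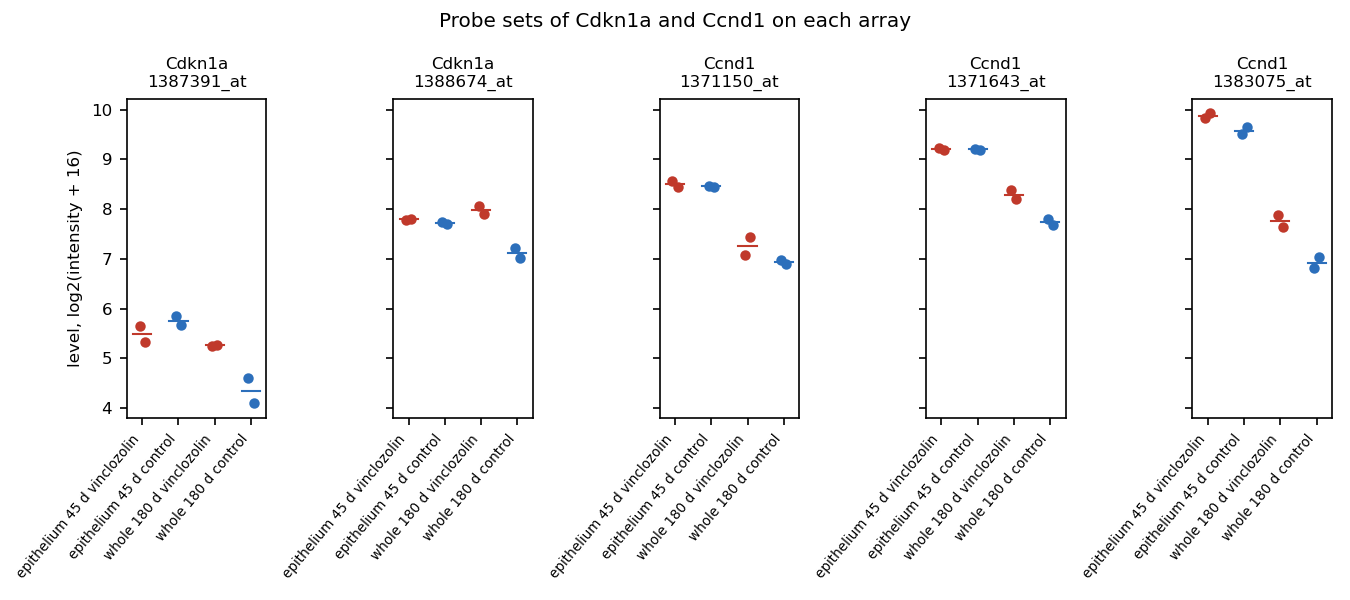
Log2 level of each probe set of Cdkn1a and Ccnd1 on each of the 8 arrays, by group, with a bar at the mean of the 2 arrays. In whole prostate both vinclozolin arrays lie above both control arrays on all 5 probe sets, where 26.1% of all probe sets lie so. Both genes are shown because they were called in this comparison.

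Markers of macrophages and of T and NK lymphocytes mostly moved with these 2 genes, and those of B lymphocytes overlapped between the lineages. In whole prostate 5 of 6 macrophage, 4 of 4 T and NK and 3 of 3 pan-leukocyte markers tested had a positive change. Of all probe sets 48.7% did. The 2 B lymphocyte markers summed to 30 and 10.8 in the vinclozolin lineage, against 14.6 and 12.3 in controls. In whole prostate the 6 macrophage markers summed to 712 and 724 in the vinclozolin lineage, against 451 and 452 in controls, and the T and NK lymphocyte markers to 232 and 234 in the vinclozolin lineage, against 110 and 132 in controls. Of the macrophage markers 1 of 6 was called higher, Csf1r (1.11 ± 0.15), and of the pan-leukocyte markers 1 of 3, Coro1a (1.16 ± 0.17), while 0 of the 4 T and NK markers tested were. Among all probe sets 0.819% were called higher. Smooth muscle markers summed to 1700 and 1840 in the vinclozolin lineage, against 2178 and 2213 in controls. The signal of the 5S ribosomal RNA probe set was 184 and 189 in the vinclozolin lineage, against 463 and 479 in controls. The actin 3' to 5' ratio was 3.37 and 3.14 in the vinclozolin lineage, against 3.74 and 3.98 in controls, without overlap. The part of these shifts in the Cdkn1a and Ccnd1 differences was not tested.

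Among the mitotic genes in whole prostate, 0 of 18 passed the test (limma) and 4 of 18 had an unadjusted p under 0.05, against 18.7% of all probe sets. With 1 probe set a gene, the brightest, 13 of the 18 changes were positive, with a median of 0.26, where 48.7% of all probe sets were positive. That median was 0.13 without the second control whole prostate array, and 0.13 to 0.29 over the 8 arrays left out in turn. The vinclozolin arrays lay above the control arrays for 7 of 18 and below for 0, where 26.1% of all probe sets lay above and 27.8% below. Kif20a, a kinesin of cytokinesis, differed by 0.67 ± 0.22 (adjusted p = 0.181) and Plk1 by 0.61 ± 0.32, where 1 vinclozolin array read 6.15 and the other 5.23, against 5.20 and 4.95 in controls. Cdk1, the mitotic kinase, read 6.03 and 5.72 in the vinclozolin lineage, against 5.43 and 5.21 in controls (difference 0.56 ± 0.16, adjusted p = 0.14). Top2a, the topoisomerase that untangles chromosomes, differed by 0.53 ± 0.16, and Ccnb1 by 0.06 ± 0.18. The probe sets of Cdc20 differed in sign, with -0.07 ± 0.18 on the brightest and 0.43 ± 0.29 and 0.15 ± 0.21 on the others, none of them called. For Mki67 the difference was 0.29 ± 0.25, with a 95% confidence interval of -0.30 to 0.88. The lowest adjusted p of a mitotic probe set was 0.0726, for one of 2 of the spindle protein Nusap1 (0.73 ± 0.15).

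S phase genes of the whole prostate had a median change of 0.08, with 7 of 13 positive, 0 called and 3 at an unadjusted p under 0.05 (48.7% and 18.7% of all probe sets). Over all 15 S phase probe sets the median was -0.02, with 7 positive, and with 1 array left out the gene median was -0.04 to 0.08, the lowest without the second control whole prostate array. Ccne2, a cyclin that activates Cdk2, was at 0.76 ± 0.21 (adjusted p = 0.133), with a second, dimmer probe set at -0.13 ± 0.34, and Ccne1 at 0.49 ± 0.21. The largest negative difference among the members was that of Mcm2, which read 7.66 and 7.69 in the vinclozolin lineage, against 8.10 and 8.31 in controls (-0.53 ± 0.14, adjusted p = 0.118). The groups did not overlap for Mcm2, where 27.8% of all probe sets lay lower without overlap. Pcna read 8.88 and 8.92 in the vinclozolin lineage, against 8.94 and 8.90 in controls, a difference of -0.02 ± 0.11 with an interval of -0.28 to 0.24. In the cyclin D group Ccnd3 differed by 0.33 ± 0.13, Ccnd2 by 0.13 ± 0.20 and Cdk4 by -0.32 ± 0.14, and among the inhibitors Cdkn2c by 0.19 ± 0.27 and Cdkn1b by 0.00 ± 0.12 (interval -0.29 to 0.29). None of these passed the test. Over the 38 genes the median change was 0.19, against -0.01 over all probe sets, and the range was -0.53 to 0.87.

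In 45-day epithelium no member passed the test between the lineages. By limma 0 of 50 member probe sets were called, and 0 also with a trended robust prior, while 7 had an unadjusted p under 0.05 (11.4% of all probe sets did). Over all probe sets 2 were called, which is 0.0092%. The changes were positive for 29 of 38 genes, with a median of 0.20, against 49.7% positive and a median of 0.00 over all probe sets. Mitotic genes had a median of 0.27, with 15 of 18 positive, and the vinclozolin arrays lay above the control arrays for 11 of 18 and below for 0, where 19.7% of all probe sets did so in each direction. The median level of the 18 mitotic genes was 6.82 and 7.07 on the vinclozolin arrays, against 6.45 and 6.68 on the control arrays. S phase genes had a median of 0.15, the cyclin D group 0.09 and the inhibitors 0.08. Over the 5 inhibitor probe sets the median was -0.01, with 2 of 5 positive.

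The largest mitotic difference in epithelium was that of Ccnb1, which read 6.82 and 7.05 in the vinclozolin lineage, against 6.26 and 6.36 in controls (0.63 ± 0.18, adjusted p = 0.299, limma), with its second probe set at 0.47 ± 0.15. Aurkb, the kinase of the chromosomal passenger complex, differed by 0.58 ± 0.25, and Ccna2 by 0.47 ± 0.45, with control arrays that read 5.66 and 7.22. For Ccnb1 and Aurkb both vinclozolin arrays lay above both control arrays, while for Ccna2 the groups overlapped. Among S phase genes Ccne2 differed by 0.53 ± 0.21 and Rrm1, a ribonucleotide reductase subunit, by 0.46 ± 0.17. The negative differences were led by Ccne1 and Cdk4 (both -0.36) and Mcm2 (-0.34 ± 0.14). Pcna differed by 0.00 ± 0.11 (interval -0.26 to 0.26), while Mki67, at 0.27 ± 0.25, had an interval of -0.33 to 0.86. Ccnd2 differed by 0.40 ± 0.20, Cdkn2c by 0.26 ± 0.27, Cdkn1b by -0.17 ± 0.12, and the brighter Cdkn1a probe set read 7.78 and 7.81 in the vinclozolin lineage, against 7.74 and 7.69 in controls (0.08 ± 0.13). The dimmer one ran the other way, at 5.65 and 5.32 in the vinclozolin lineage, against 5.85 and 5.67 in controls (-0.27 ± 0.20). Probe sets also differed in sign for Cdk2 (-0.13 ± 0.18 on the brighter, 0.02 ± 0.20 on the dimmer), Kif2c (-0.16 ± 0.14 brighter, 0.13 ± 0.13 dimmer) and Cdkn2c, whose dimmer probe set was at -0.01 ± 0.20. None of these was called.

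**Figure D2:**
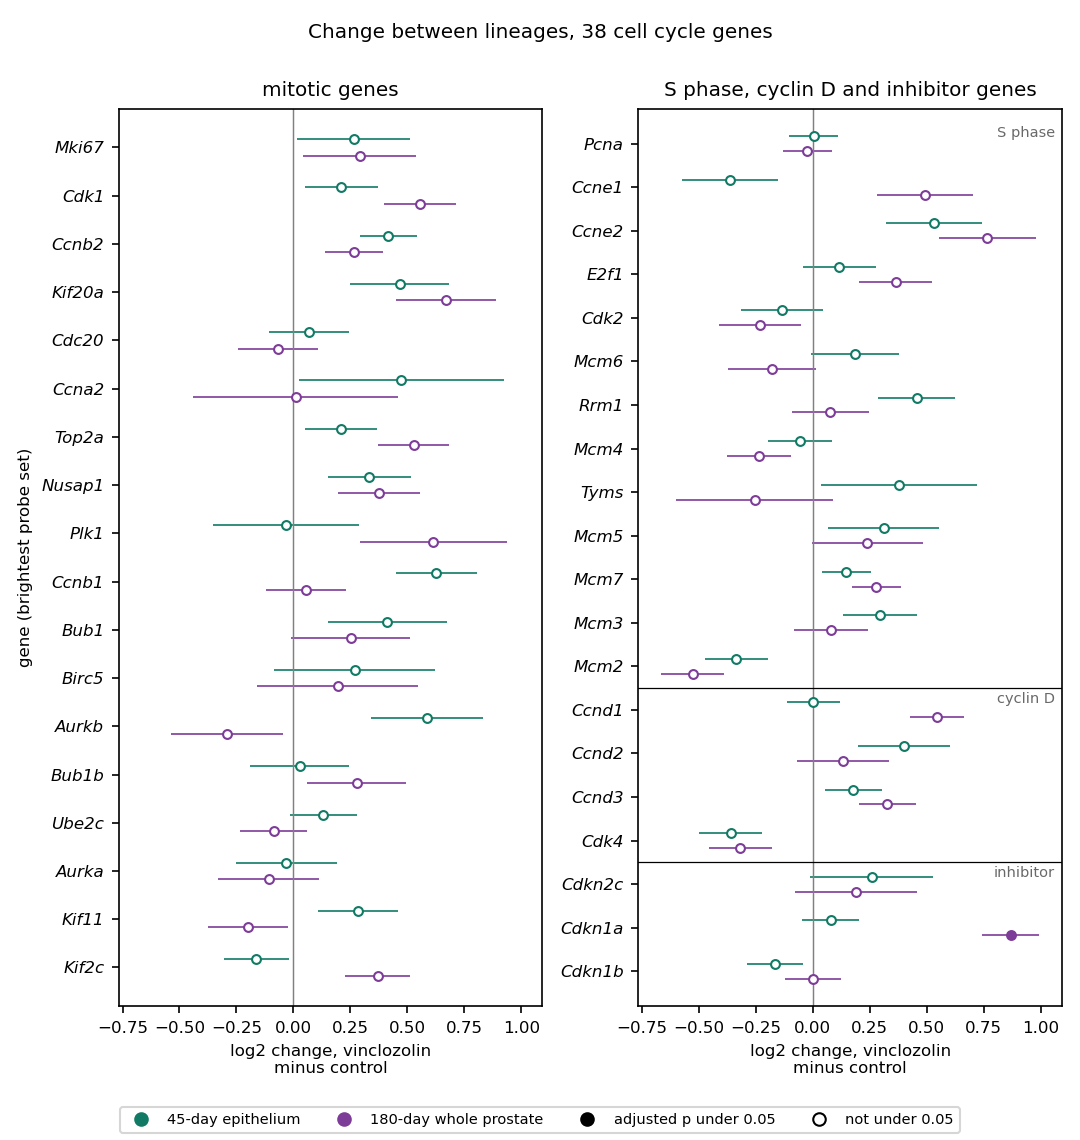
Log2 change of each of the 38 genes, vinclozolin minus control lineage, in 45-day epithelium and 180-day whole prostate, by role, with bars of 1 SE and filled points where the adjusted p is under 0.05. Cdkn1a in whole prostate is the single filled point, at 0.87, since the called Ccnd1 probe set is not that gene's brightest.

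The lineage differences were of the same sign in both preparations for 27 of 38 genes (71.1%), 22 positive and 5 negative, against 54.2% of all probe sets. The epithelium and whole prostate comparisons share no arrays but were normalised together, and the genes are not independent replicates. Tested directly, the difference of the lineage effects, epithelium minus whole prostate, passed for 0 of 50 member probe sets by limma (0.29% of all probe sets did), and 7 had an unadjusted p under 0.05 (13.5% of all). The lowest adjusted p was that of Cdkn1a, -0.79 ± 0.18 on the brighter probe set (adjusted p = 0.172) and -1.18 ± 0.28 on the dimmer one (0.193). The dimmer one had whole prostate control values near the floor. With a trended robust prior the brighter Cdkn1a probe set passed (adjusted p = 0.0344), the only member to do so there. Ccne1 differed by -0.86 ± 0.30 (adjusted p = 0.304), Aurkb by 0.88 ± 0.35 (0.351) and Ccnd1 by -0.54 ± 0.17 (0.263). The sign of this difference depended on the probe set for Ccne2 (-0.23 on the brightest, 0.19 on the other), Top2a (-0.32 and 0.00), Cdkn2c (0.07 and -0.29) and Cdc20 (0.14 on the brightest, -0.33 and 0.29 on the others). The rise of Cdkn1a in whole prostate was not shown to differ from its change in epithelium at this number of arrays.

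Between the preparations, most members stood higher in 45-day epithelium than in 180-day whole prostate, in both lineages. On the brightest probe set, 21 of 38 genes rose and 1 fell in the vinclozolin lineage, and 23 rose and 1 fell in the control lineage. Of these, 19 rose in both and Kif2c fell in both. The share of all probe sets that rose was 13.1% in the vinclozolin lineage and 12.9% in the control lineage, with 8.73% in both. The share that fell was 14.2% in the vinclozolin lineage and 15% in controls, with 8.5% in both. The median change of the 38 genes was 0.82 in the vinclozolin lineage and 0.88 in the control lineage. Over all probe sets it was -0.06 in the vinclozolin lineage and -0.05 in controls. With arrays centred on their medians in place of quantile normalisation, the median of all probe sets was -0.17 in the vinclozolin lineage and -0.20 in controls. Rises then made up 32.5% of the calls in the vinclozolin lineage and 28.9% in controls, and with quantiles 47.9% in the vinclozolin lineage and 46.3% in controls. Under both scalings 29 of the 50 member probe sets were called in the vinclozolin lineage and 31 in controls.

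**Figure D3:**
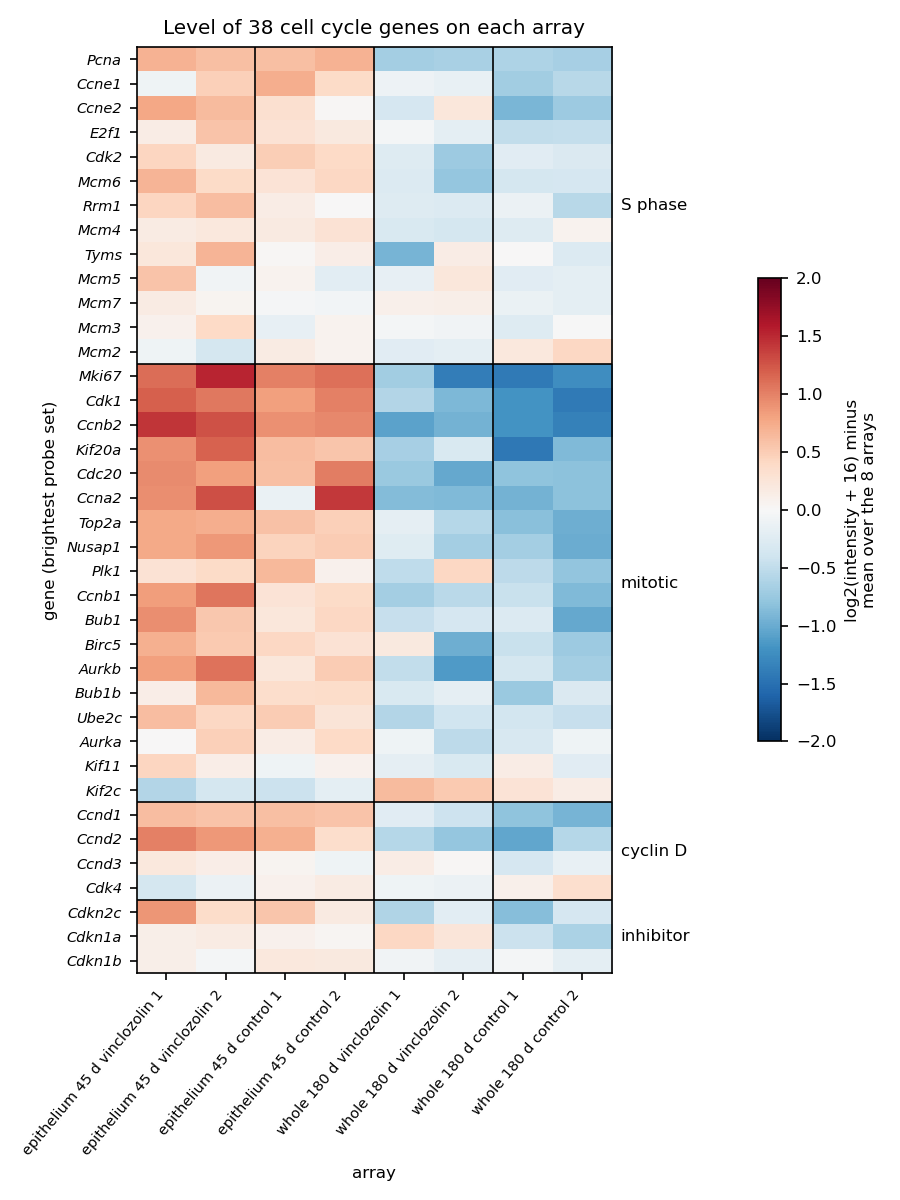
Log2 level of the 38 genes on each of the 8 arrays, as the difference from the gene's mean over all arrays, with genes in rows by role and arrays in columns by group. Most mitotic rows are above their mean on all 4 epithelium arrays, and the Kif2c row runs the other way.

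With 1 probe set a gene, the mitotic genes had the highest median change of the 4 roles in both lineages, which was not tested between roles. Over all probe sets the order differed in the control lineage, where the median was 1.16 for mitotic probe sets and 1.40 for the 6 of the cyclin D group. In the vinclozolin lineage 12 of 18 mitotic genes rose and 1 fell, with a median of 1.20, and in the control lineage 13 rose and 1 fell, with a median of 1.01. The shares of all probe sets that rose were 13.1% in the vinclozolin lineage and 12.9% in controls. Mki67 had intensities of 201.5 and 267 in vinclozolin epithelium and 185 and 199.5 in control epithelium, against 42.2 and 21.8 in vinclozolin whole prostate and 18.2 and 22.8 in control whole prostate. The 4 epithelium arrays all lay above the 4 whole prostate arrays. Its change was 2.36 ± 0.25 in the vinclozolin lineage, or 5.13-fold, and 2.38 ± 0.25 in the control lineage, or 5.22-fold (adjusted p = 0.00134 and 0.00126, limma). Ccnb2, the second mitotic cyclin B, read 8.31 and 8.15 in vinclozolin epithelium and 7.79 and 7.84 in control epithelium, against 5.81 and 5.94 in vinclozolin whole prostate and 5.69 and 5.52 in control whole prostate. It rose 5.12-fold in the vinclozolin lineage and 4.62-fold in controls, and the preparations did not overlap either. Cdk1 rose by 1.88 ± 0.16 in the vinclozolin lineage and 2.22 ± 0.16 in controls.

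Further mitotic genes that rose in both lineages were Kif20a (1.53 in the vinclozolin lineage and 1.73 in the control lineage), Cdc20, which activates the anaphase-promoting complex (1.77 vinclozolin, 1.63 control), Ccna2 (1.99 vinclozolin, 1.52 control), Nusap1 (1.27 vinclozolin, 1.31 control), Ccnb1 (1.56 vinclozolin, 0.99 control), Top2a (1.12 vinclozolin, 1.44 control) and Aurkb (1.76 vinclozolin, 0.88 control). Bub1, a kinase of the spindle checkpoint, rose by 1.13 in the vinclozolin lineage and 0.97 in controls, and Ube2c, the ubiquitin-conjugating enzyme of the anaphase-promoting complex, by 1.01 in the vinclozolin lineage and 0.79 in controls. The checkpoint gene Bub1b was at 0.63 ± 0.22 in the vinclozolin lineage, which missed the threshold, and rose by 0.88 ± 0.22 in the control lineage. Plk1, Aurka, Birc5 and Kif11 passed in neither lineage, with changes of 0.38 to 1.01 in the vinclozolin lineage and 0.04 to 1.03 in controls. Of the mitotic genes that rose in both lineages, Ccna2, Aurkb and Ube2c had no promoter matched. Among the others, Mki67, Cdk1, Ccnb2, Cdc20, Top2a and Nusap1 held TTTGAA in the promoter window. Kif20a, Bub1 and Ccnb1, whose sequence is printed above, did not hold TTTGAA. Plk1 and Birc5, which passed in neither lineage, and Bub1b, which passed in controls only, held it too, and Aurka, Kif11 and Kif2c did not. Of the 24 tested mitotic probe sets 22 were positive in each lineage, against 45.6% of all probe sets in the vinclozolin lineage and 45.4% in controls. In each lineage 17 were called higher and 1 lower, and the 2 negative ones were those of Kif2c.

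Kif2c, a kinesin that takes microtubules apart, ran against the other mitotic genes. Its brighter probe set read 7.78 and 8.01 in vinclozolin epithelium and 7.95 and 8.17 in control epithelium, against 9.01 and 8.89 in vinclozolin whole prostate and 8.64 and 8.51 in control whole prostate. It fell by 1.05 on the log2 scale in the vinclozolin lineage (SE 0.14, adjusted p = 0.00351) and by 0.52 in the control lineage (SE 0.14, adjusted p = 0.0378). A second Kif2c probe set missed the threshold in both lineages (-0.36 ± 0.13 vinclozolin, -0.08 ± 0.13 control). The call in the control lineage was kept in 8 of 18 alternative settings, and that in the vinclozolin lineage in all 18.

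Of the 13 S phase genes, 6 rose in each lineage and 0 fell, with medians of 0.51 in the vinclozolin lineage and 0.41 in controls. Among all probe sets 13.1% rose and 14.2% fell in the vinclozolin lineage, against 12.9% and 15% in controls. Pcna read 10.26 and 10.16 in vinclozolin epithelium and 10.16 and 10.26 in control epithelium, against 8.88 and 8.92 in vinclozolin whole prostate and 8.94 and 8.90 in control whole prostate. The epithelium arrays lay above all whole prostate arrays, and the change was 1.32 ± 0.11 in the vinclozolin lineage and 1.29 ± 0.11 in the control lineage. Ccne2 (0.75 vinclozolin, 0.99 control), Cdk2 (0.80 vinclozolin, 0.70 control) and Mcm6 (1.06 vinclozolin, 0.70 control) rose in both lineages. The dimmer probe sets of Ccne2 (-0.17 vinclozolin, -0.36 control) and Cdk2 (0.41 vinclozolin, -0.03 control) were not called. Ccne1 was at 0.32 in the vinclozolin lineage, not called, and rose by 1.18 in controls. E2f1, a transcription factor of S phase entry, was at 0.48 in the vinclozolin lineage, not called, and rose by 0.73 in controls. Rrm1 (0.79) and Mcm4 (0.51) rose in the vinclozolin lineage, and in controls, at 0.41 and 0.33, they were not called. These contrasts between lineages are the difference of effects above, in which no member was called. Mcm2, Mcm3, Mcm5, Mcm7 and Tyms, the thymidylate synthase, passed in neither lineage. Mcm7 differed by -0.01 ± 0.11 in the vinclozolin lineage and 0.13 ± 0.11 in controls, and Mcm2 by 0.00 ± 0.14 in the vinclozolin lineage and -0.19 ± 0.14 in controls. Mcm6, which passed in both, belongs to the same helicase.

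**Figure D4:**
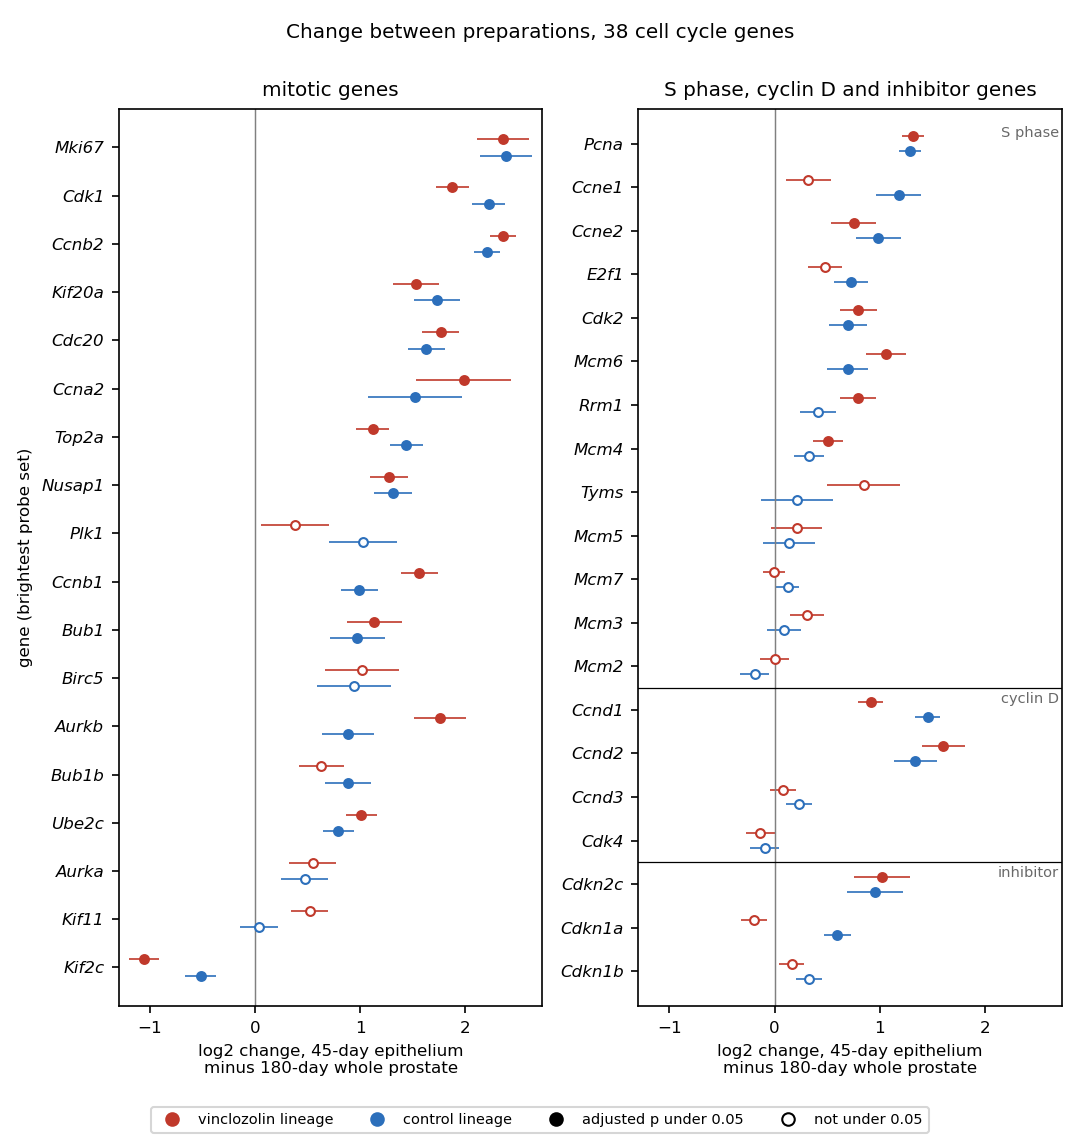
Log2 change of each of the 38 genes, 45-day epithelium minus 180-day whole prostate, in the vinclozolin and the control lineage, with bars of 1 SE and filled points where the adjusted p is under 0.05. The mitotic genes reach 2.38 (Mki67), Kif2c lies below 0 in both lineages, and the S phase genes range from values near 0 to 1.32 (Pcna).

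In the cyclin D group, Ccnd1 and Ccnd2 rose in both lineages. All 3 Ccnd1 probe sets were called, at 2.12 ± 0.14, 1.26 ± 0.15 and 0.91 ± 0.12 in the vinclozolin lineage and 2.66 ± 0.14, 1.52 ± 0.15 and 1.46 ± 0.12 in the control lineage. The first of them read 9.84 and 9.93 in vinclozolin epithelium and 9.50 and 9.65 in control epithelium, against 7.89 and 7.64 in vinclozolin whole prostate and 6.81 and 7.03 in control whole prostate. On that probe set the epithelium arrays were the 4 highest, and the control whole prostate arrays the 2 lowest. Ccnd2 rose by 1.60 ± 0.20 in the vinclozolin lineage and 1.34 ± 0.20 in controls. Ccnd3 (0.08 vinclozolin, 0.23 control) and Cdk4 (-0.14 vinclozolin, -0.09 control) did not pass. Among the inhibitors, Cdkn2c, which blocks Cdk4, rose by 1.02 ± 0.27 in the vinclozolin lineage and 0.95 ± 0.27 in controls on its brighter probe set. The dimmer one, at -0.37 in the vinclozolin lineage and -0.08 in controls, was not called. The brighter Cdkn1a probe set was at -0.19 ± 0.13 in the vinclozolin lineage, not called, and rose by 0.60 ± 0.13 in controls. The dimmer one was at 0.22 ± 0.20 in the vinclozolin lineage, not called, and rose by 1.41 ± 0.20 in controls, from whole prostate values near the floor. Cdkn1b, an inhibitor of Cdk2, did not pass (0.16 ± 0.12 vinclozolin, 0.33 ± 0.12 control).

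The changes of the 38 genes in the vinclozolin and the control lineage correlated with a Pearson r of 0.861 and a Spearman rho of 0.823. The lineages share no arrays but were normalised together, and genes are not independent replicates. Of all probe sets 8.73% rose and 8.5% fell in both lineages. The correlation over all probe sets is not given here, so these values do not set the members apart. Among the 38 genes the widest gap between lineages was that of Aurkb, 0.88. Of the called member probe sets, 18 of 29 in the vinclozolin lineage and 16 of 31 in the control lineage were called in every alternative setting. In the control lineage the calls of Ccna2 and Aurkb were kept in 9 of 18 settings, that of Bub1 in 9 of 17 and that of Cdkn2c in 8 of 18, and the Ccna2 change ranged from 0.74 to 2.31 over them. In the vinclozolin lineage Mcm4 was kept in 7 of 18, Ccne2 in 9 of 18 and Cdkn2c in 11 of 18. In the control lineage the 31 calls became 19 when either whole prostate control array was left out. Stromal and basal markers moved with these genes. Basal markers summed to 3261 to 3446 in epithelium and 471 to 598 in whole prostate, and 4 of 5 rose in each lineage, as did 5 of 5 smooth muscle and 5 of 6 fibroblast markers. Among all probe sets 13.1% rose in the vinclozolin lineage and 12.9% in controls. Macrophage markers summed to 170 to 194 in epithelium and 451 to 724 in whole prostate. Of these markers 5 of 6 fell in the vinclozolin lineage and 4 of 6 in controls, against 14.2% and 15% of all probe sets. Actin 3' to 5' ratios also differed, as given above. Their part in the preparation differences was not tested.

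Other cell cycle genes were taken from lists outside the members, chosen by name with earlier results of these data known, and 70 passed the filter. In whole prostate 3 of them rose in the vinclozolin lineage and none fell, against 0.819% and 0.925% of all probe sets. These were Pttg1, the securin that guards sister chromatids (1.61 ± 0.26, adjusted p = 0.0404), Cks2, a partner of Cdk1 (0.88 ± 0.15, adjusted p = 0.0478), and Gadd45a, a p53-inducible stress gene (0.78 ± 0.12, adjusted p = 0.0396), all by limma. Pttg1 had intensities of 38.6 and 72.3 in the vinclozolin lineage, against 6.6 and 6.9 in controls, among the dimmest values of the array. Other p53 targets were not called: Mdm2 differed by 0.24 and Ccng1 by -0.18, and 8 of the 12 other inhibitors and p53 targets were negative, with a median of -0.27. In epithelium 0 of the 70 were called by limma, and 10 had an unadjusted p under 0.05, against 11.4% of all probe sets.

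Between preparations, 15 of the 27 other mitotic genes rose and 1 fell in the vinclozolin lineage, and 13 rose and 1 fell in the control lineage. Of all probe sets, 13.1% rose and 14.2% fell in the vinclozolin lineage, and 12.9% rose and 15% fell in controls. Prc1, a protein of the central spindle, rose by 2.19 in the vinclozolin lineage and 2.83 in controls, and Cks2 by 2.12 in the vinclozolin lineage and 2.82 in controls, while the kinesin Kif15 fell by 0.72 in the vinclozolin lineage and by 1.01 in the control lineage. Of 20 other S phase genes 8 rose in the vinclozolin lineage and 9 in controls, and none fell. The nucleotide enzymes Dut (1.74 vinclozolin, 1.56 control) and Tk1 (1.05 vinclozolin, 1.37 control) were among them. Of 12 other G1 genes 0 rose and 1 fell in the vinclozolin lineage, and 1 rose and 1 fell in controls, at or below those shares. Ccnc, cyclin C, was the gene that fell, by 0.50 in the vinclozolin lineage and by 0.70 in controls. Myc, a transcription factor of cell growth, was at 0.59 ± 0.20 in the vinclozolin lineage, not called, and rose by 1.15 in controls.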

How the data were processed

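RNA of 8 pooled rat prostate samples was measured on 8 arrays. The authors deposited 1 linear intensity per probe set and array; the software and settings that made these values are not given in the sources used here. Biotin labelling followed the array maker's procedure, per the labels' protocols. From the values, every array had a trimmed mean of 125 (2% cut at each end), so the deposited intensities were already on a common scale.

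From these, log2(intensity + 16) was computed, 57 control probe sets were left out, and the arrays, whose medians differed by up to 0.29, were quantile normalised. Those whose mean lay below the 30th percentile were dropped, which left 21729, among them 50 of the 54 member probe sets. Those dropped belong to Cdc20 (2), Kif11 and Cdkn1b, and all 38 genes kept at least 1. Annotation gave 1 symbol for 20826 probe sets, several for 436 and none for 9780. Group means were fitted over all 8 arrays with limma 3.58.1 in R 4.3.3 (4 residual degrees of freedom, prior 2.62), with Benjamini-Hochberg adjustment over all probe sets tested and a call at adjusted p under 0.05. Values with ± are standard errors of the fit. Python 3.11.15 and matplotlib 3.10.9 were used for sequences and plots.

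Members, roles and the other lists were chosen with earlier results of these data known. Named are each member called, the 3 largest changes of a role in a comparison, a set of 10 standard genes, genes whose probe sets differ in sign, and up to 4 genes of each other list. No set test was run. In simulated data 200 of 21729 probe sets were changed. The fit called 39% of changes of 1 log2 unit and 89% of changes of 2 in each lineage comparison. There were 2 false calls of 130 for whole prostate and 4 of 132 for epithelium. Smaller changes were not simulated, and every member difference between the lineages was smaller, at most 0.91. Precision is limited by 2 arrays a group. The values gave no sign that the replicate numbers pair the samples: deviations of same-numbered arrays correlated between -0.02 and 0.03. This cannot show that the samples were unpaired. Alternatives covered the added constant, the dim filter, the scaling, the arrays fitted, the variance prior, array weights, a replicate block, each array left out, and how probe sets of a gene are combined.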

Additional observations from a re-analysis of the deposited data

How the results depend on the processing

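No called change of a member took the other sign under the settings run. Of 2150 repeated tests of named members, 1982 stayed on the same side of the threshold, 156 lost and 12 gained a call. For whole prostate the count over all probe sets (379) was 235 with a pseudocount of 1, 1133 with 64, 200 without the filter, 965 with a filter at the 50th percentile, 65 from the contrast's own arrays, 1814 with a trended robust prior and 871 with array weights, and the member count (2 probe sets) was 1, 4, 0, 4, 0, 5 and 4 in the same order and 1 with median centring. Members gained there were Mcm2 (pseudocount 64, robust prior), Nusap1 (50th percentile, robust prior, weights) and a second Ccnd1 probe set. By genes, 1 became 2 when any probe set could count. For epithelium the count (2) was 0, 66, 0, 23, 0, 205 and 0, and 1 with median centring. The difference of effects (63) gave 40 and 262 with pseudocounts 1 and 64, 32 without the filter, 169 at the 50th percentile and 540 with the robust prior, which called 1 member. The vinclozolin preparation count (5946) was 3931 from its own arrays. The replicate block gave 177 calls and 0 members in whole prostate (adjusted p 0.0558 for Cdkn1a and 0.0891 for Ccnd1), 0 in epithelium and 26 for the difference.

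The members' median between preparations, in the vinclozolin and the control lineage, was 1.05 and 1.23 with a pseudocount of 1, 0.49 and 0.47 with 64, and 0.93 and 1.09 as deposited; in the vinclozolin lineage it was 0.72 with median centring and 0.71 over all probe sets of a gene. Of 376 recomputed role medians, 54 moved by more than the spread between arrays and 10 had the other sign, 4 of these for S phase genes.

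With 1 array left out, counts over all probe sets were 24 to 225 for whole prostate, 0 for epithelium, 5 to 19 for the difference, 3332 to 6022 for the vinclozolin and 2648 to 5789 for the control preparation comparison. Member probe sets called were 0 in the first 3, 21 to 28 and 19 to 29. Member medians were 0.14 to 0.21 in whole prostate and in epithelium. For the difference the member median was -0.062 to 0.088, and between preparations 0.81 to 0.89 and 0.74 to 0.89. On simulated data 39% of changes of 1 log2 unit were called, and smaller ones were not simulated. The causes of these shifts were not tested.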
